A study of Mus musculus with 34 samples.

Results

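Transcription in NaJa-G, a mouse colorectal cancer cell line with a mesenchymal-like appearance, was compared after 1 day in 0.5 µM encorafenib and after 1 day in the solvent dimethyl sulfoxide (DMSO). The comparison takes the 3 encorafenib and the 3 DMSO RNA sequencing libraries of that line and day, 6 of the 34 libraries of the series, and covers all 14107 genes of the count table. NaJa-D, NaJa-F and NaJa-G were each grown out of the peritoneal lavage of a different C57BL/6N recipient mouse that had received colon organoids from a single male donor. All libraries therefore share 1 engineered background, labelled VillinCreERT2::BrafV600E/+::Trp53R172H::APCdel: after 4-hydroxytamoxifen had activated the Cre recombinase, which the epithelial Villin promoter drives, the organoids carried the Braf V600E and Trp53 R172H changes and had lost Apc, in the controls as well as in the treated cells. The other groups used here are the same treatment and solvent at day 1 in NaJa-D and NaJa-F (3 libraries per treatment) and at day 5 in NaJa-G (3 encorafenib and 2 DMSO libraries). Each line is a single culture from a single recipient, and the labels do not say that replicates came from separate thawings or passages, so p-values measure the spread between these libraries, which may be technical. In bulk RNA a change in the number of cells of a kind and a change in RNA per cell cannot be told apart, and a gene's count does not separate the mutant from the normal allele.

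BRAF is a kinase of the RAS-RAF-MEK-ERK cascade, which carries signals from growth factor receptors to the nucleus. The V600E change keeps the kinase active without RAS, and encorafenib binds the active monomeric form of the mutant protein. Active ERK raises transcription of early genes such as the ETS factors Etv4 and Etv5 and the AP-1 subunit Fosl1, and of its own inhibitors, the dual-specificity phosphatases and the Sprouty and Spred proteins. In epithelial cells the cascade also feeds cyclin-dependent kinases, ribosome production and the balance of BCL2-family proteins. Blocking the ERK pathway frees EGFR from negative feedback and reactivates it, which is a known route by which colorectal cancers escape BRAF inhibition.

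The 6 libraries held 51186786 to 80121299 counts (all 34: 46007050 to 80121299), with TMM factors (trimmed-mean scaling of library sizes) of 0.954 to 1.04, 14.1% to 15.6% of counts in the 50 most abundant genes and, in 16 mitochondrial genes, 4.14% to 4.61% of counts in DMSO and 3.29% to 3.79% in encorafenib, without overlap. Libraries of a group correlated at 0.992 or above and libraries of different groups at 0.949 or below (Pearson's r of log2 CPM, counts per 1000000, across genes). The median SD across genes was 0.115 in DMSO and 0.0680 in encorafenib on the log2 scale. DMSO replicate 1 stood apart: 45 of the 9230 genes above a mean of 3 log2 CPM lay more than 1 log2 unit from the mean of DMSO replicates 2 and 3, against 1 gene between those replicates. Among them were the nuclear RNA Neat1 (-2.20) and Rsrp1 (-1.94), while cytosolic ribosomal protein genes were higher by a median of 0.286, against 0.0788 over all these genes. Each count of list members below that changed without DMSO replicate 1 by more than 1.5 times is given with the value without it. Counts of gene families were not repeated without it. The labelled cell type was checked by markers. Epithelial markers were detected, with Cdh1 at 518 ± 34.4 CPM, Krt8 at 908 ± 132 CPM and Epcam at 90.2 ± 3.72 CPM in DMSO (mean ± SD, n = 3). So were the mesenchymal Vim at 2503 ± 372 CPM, Fn1 at 4373 ± 215 CPM, Cdh2 at 160 ± 8.91 CPM and Zeb1 at 31.0 ± 0.876 CPM. The study found the most E-cadherin protein in NaJa-D, and marker levels were not compared between lines here. Intestinal identity genes were uneven. The transcription factors Cdx2 and Hnf4a were at 8.68 ± 1.06 and 5.08 ± 0.867 CPM and villin (Vil1) at 0.548 ± 0.112 CPM. Cadherin-17 (Cdh17) was at 55.7 ± 1.02 CPM, and Cdx1 was not among the genes of the table.

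Encorafenib changed the expression of most genes within 1 day. Of 14107 genes, 64% were called (limma-voom, a weighted linear model of log2 CPM, with a Benjamini-Hochberg adjusted p below 0.01), 35.3% higher and 28.7% lower. The calls included small changes: 2879 of the 9026 called genes, or 31.9%, moved by less than 0.5 log2 units, and the median standard error of a log2 fold change was 0.087. Larger changes leaned upward. At least 4-fold (2 log2 units) separated 543 higher and 205 lower genes, at least 8-fold 157 and 68, and at least 16-fold 58 and 28. The groups did not overlap in 10372 genes (73.5%), among them 8977 of the called ones. The median log2 fold change over all genes was 0.044. Calls fell mainly among protein-coding genes, with 4742 higher and 3725 lower of 12495, while of 247 long intergenic RNAs 52 were higher and 59 lower, and of 543 processed pseudogenes 45 and 59. Genes called higher and lower were alike in transcript GC content, with medians of 50.1% and 49.2%.

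**Figure D1:**
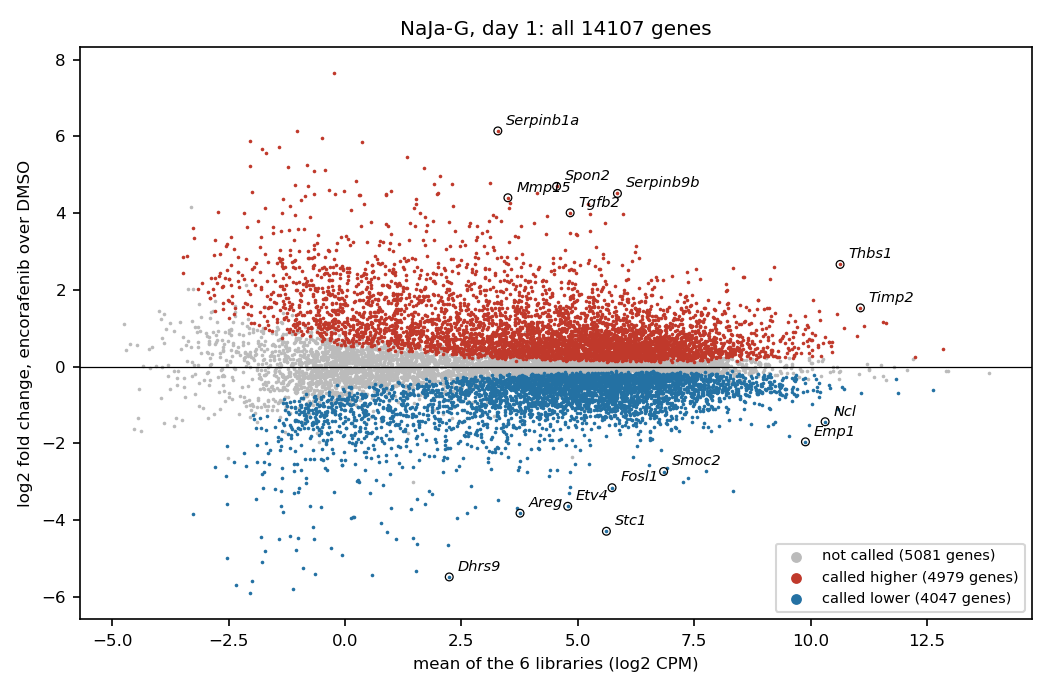
Log2 fold change of encorafenib over DMSO (vertical axis) against mean abundance over the 6 libraries (horizontal axis, log2 CPM) for the 14107 genes of NaJa-G at day 1. Red points are the 4979 genes called higher, blue points the 4047 called lower and grey points those not called, with circles marking genes named in the text. Changes beyond 4 log2 units lie on both sides but more often above 0 (58 genes against 28).

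The gene with the largest rise under the naming rule was Serpinb1a (ENSMUSG00000044734, chromosome 13, 32842092 to 32851185, GRCm38, minus strand), an inhibitor of neutrophil-type serine proteases. It stood at 0.929, 1.21 and 1.33 CPM in DMSO and 78.97, 78.9 and 83.2 CPM in encorafenib (log2 fold change 6.14, SE 0.18, adjusted p = 6.76e-22). Each encorafenib library was far above each DMSO library. Its neighbour Serpinb9b, of the same clade of serpins, stood at 11.9, 12.2 and 12.1 CPM in DMSO and 283, 259 and 285 CPM in encorafenib (log2 fold change 4.51, SE 0.074, adjusted p = 5.22e-27). Serpinb9 and its copies are alike in sequence, and the way reads were shared among them is not given in the sources used here, so the values of single copies are uncertain. Spon2, a secreted matrix protein, stood at 5.05, 4.41 and 4.22 CPM in DMSO and 116, 117 and 122 CPM in encorafenib (log2 fold change 4.7, SE 0.088, adjusted p = 1.09e-25). Mmp15, a membrane-bound matrix metalloproteinase, stood at 3.14, 2.09 and 2.18 CPM in DMSO and 49.9, 54.3 and 51.2 CPM in encorafenib (log2 fold change 4.4, SE 0.20, adjusted p = 3.23e-17), and DMSO replicate 1 was the highest of its group. Neither gene overlapped between treatments, which the naming rule required of the highest 10. Ptn, the heparin-binding growth factor pleiotrophin, stood at 2.36, 2.87 and 2.66 CPM in DMSO and 48.7, 51.2 and 52.7 CPM in encorafenib (log2 fold change 4.28, SE 0.12, adjusted p = 3.37e-22). The other 5 genes among the highest 10 were Cd200r3 (from 0.722 ± 0.162 to 22.5 ± 1.07 CPM), the pantetheinase Vnn1 (from 1.63 ± 0.199 to 45.3 ± 3.53 CPM), the ligand Wnt9a (from 0.928 ± 0.176 to 25.3 ± 1.04 CPM), skeletal muscle actin Acta1 (from 0.817 ± 0.14 to 19.1 ± 1.58 CPM) and the cornified envelope gene Sprr2a3 (from 3.6 ± 0.201 to 82.7 ± 6.13 CPM, one of several near-identical copies). Their log2 fold changes were 4.98, 4.79, 4.75, 4.52 and 4.51.

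**Figure D2:**
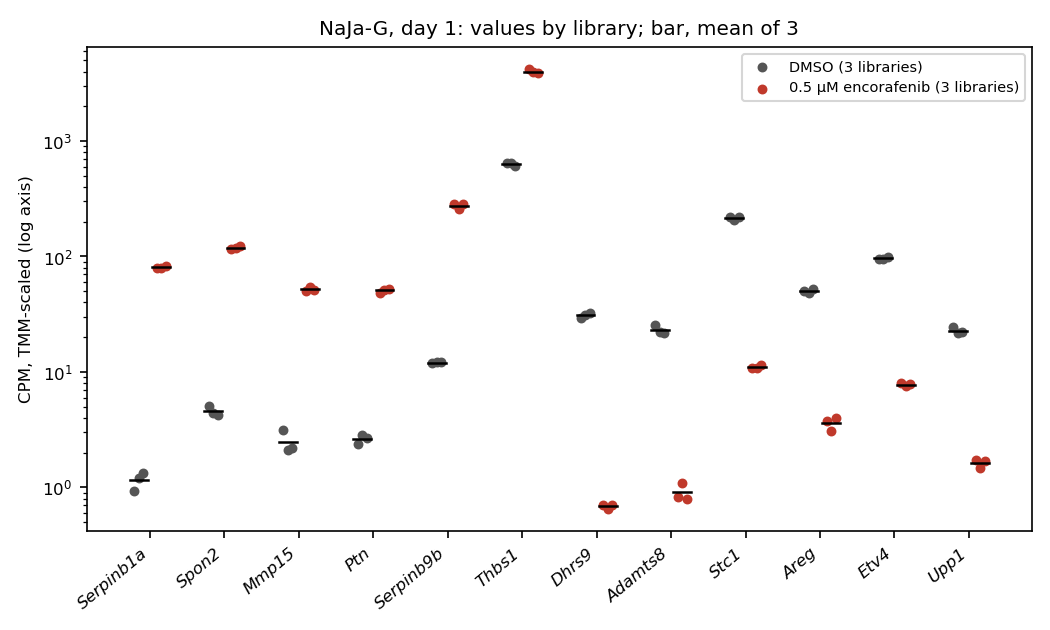
CPM on a log axis in each of the 3 DMSO (grey) and 3 encorafenib (red) libraries of NaJa-G at day 1 for 12 genes, with a bar at the mean of each group. The 6 genes on the left rose and the 6 on the right fell, and in none of the 12 did the groups overlap. All but Thbs1 were named among genes without overlap, a property of 73.5% of all genes.

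Among the genes that fell, Dhrs9, a retinol dehydrogenase of differentiated gut epithelium, changed most under the naming rule: 29.3, 31.1 and 32.4 CPM in DMSO and 0.705, 0.648 and 0.708 CPM in encorafenib (log2 fold change -5.48, SE 0.24, adjusted p = 7.45e-18). Stc1, a secreted glycoprotein hormone, fell as well: 219.8, 209 and 219 CPM in DMSO and 10.8, 10.9 and 11.5 CPM in encorafenib (log2 fold change -4.29, SE 0.088, adjusted p = 4.83e-25). The lowest DMSO library of either gene lay far above its highest encorafenib library. Adamts8, a secreted metalloproteinase, was at 25.6, 22.2 and 21.6 CPM in DMSO and 0.833, 1.1 and 0.789 CPM in encorafenib (log2 fold change -4.65, SE 0.19, adjusted p = 2.49e-18). Upp1, uridine phosphorylase, was at 24.4, 21.8 and 22.1 CPM in DMSO and 1.73, 1.48 and 1.7 CPM in encorafenib (log2 fold change -3.81, SE 0.11, adjusted p = 7.38e-22). Areg, encoding the EGFR ligand amphiregulin, was at 50.1, 48.5 and 52.2 CPM in DMSO and 3.78, 3.08 and 4.03 CPM in encorafenib (log2 fold change -3.82, SE 0.14, adjusted p = 3.32e-19). All 3 of these genes kept a wide gap between the groups, and the naming rule required no overlap of the lowest 10. The vesicular glutamate transporter Slc17a6 (from 20.5 ± 0.555 to 1.32 ± 0.0931 CPM), the ubiquitin ligase gene Ube2ql1 (from 46.4 ± 5.56 to 3.64 ± 0.491 CPM) and Hao1 (from 32.2 ± 2.44 to 2.93 ± 0.523 CPM), a peroxisomal oxidase, completed the lowest 10 together with Spry4 and Etv4, which are described among the ERK targets.

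The largest gains in CPM were in genes of the matrix, the cytoskeleton and retinol uptake. Thbs1, thrombospondin-1, rose from 632 ± 24.2 to 3999 ± 182 CPM (log2 fold change 2.66), S100a6 rose from 2129.9 ± 152 to 4647 ± 82.8 CPM (1.13), the retinol transporter Stra6 from 2022 ± 228 to 4516 ± 111 CPM (1.17), the protease inhibitor Timp2 from 1268 ± 106 to 3653 ± 148 CPM (1.53) and beta-actin (Actb) from 6271 ± 851 to 8620.3 ± 519 CPM (0.47). Actb was not called when only the compared groups were fitted (0.42, adjusted p = 0.01003, limma-voom). The largest losses were mitochondrial mt-Nd1 (from 7828 ± 1049 to 5102 ± 420.4 CPM, -0.61), the chaperone Hsp90ab1 (from 4783 ± 397 to 2953 ± 68.6 CPM, -0.69), the membrane protein Emp1 (from 1871 ± 40.02 to 481 ± 16.6 CPM, -1.96) and nucleolin, Ncl (from 2094 ± 124 to 773 ± 5.5 CPM, -1.44). For mt-Co1 the mean moved from 15416 ± 1649 to 13771 ± 1092 CPM, which was not called (adjusted p = 0.275, limma-voom).

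The listed inhibitors of MAP kinase signalling, some of which ERK itself induces, mostly fell. The list holds phosphatases, Sprouty and Spred genes and Errfi1. All 17 tested were called, 12 lower and 5 higher, beside 28.7% lower and 35.3% higher over all genes. Their median log2 fold change was -0.93 against 0.044 over all genes. Spry4 was at 26.2, 23.1 and 23.6 CPM in DMSO and 2.05, 1.77 and 2.04 CPM in encorafenib (log2 fold change -3.64, SE 0.17, adjusted p = 2.28e-17). Dusp6, the phosphatase that acts on cytoplasmic ERK, was at 193, 174 and 173 CPM in DMSO and 49.8, 45.9 and 48.6 CPM in encorafenib (log2 fold change -1.9, SE 0.076, adjusted p = 8.8e-19). Both groups of values lay wide apart in either gene. Dusp9 (from 22.3 ± 3.25 to 4.68 ± 0.134 CPM) and Spred3 (from 47.1 ± 8.37 to 10.6 ± 1.8 CPM) fell by 2.25 and 2.12 on the log2 scale. The 5 that rose were Dusp1 (from 52.1 ± 2.98 to 249 ± 8.81 CPM, 2.26) and Dusp8 (1.85), whose products also act on the stress kinases JNK and p38, with Dusp10 (1.47), Dusp16 (0.73) and Spry1 (0.51).

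Transcription factors of the early response split into those that fell steeply and those that rose. Of 24 tested, 10 were lower, 7 higher and 7 not called (median -0.058), beside 28.7% lower and 35.3% higher over all genes. Etv4 was at 94.8, 95.8 and 99.9 CPM in DMSO and 7.95, 7.52 and 7.89 CPM in encorafenib (log2 fold change -3.64, SE 0.086, adjusted p = 1.23e-23), and Fosl1, the AP-1 subunit FRA1, was at 171, 150.3 and 156 CPM in DMSO and 18.5, 18.2 and 16.7 CPM in encorafenib (log2 fold change -3.15, SE 0.10, adjusted p = 1.13e-20). Neither gene's groups came near each other. Etv5 (from 73.6 ± 7.38 to 10.9 ± 0.265 CPM, -2.75), Fosb (-2.66) and Egr1 (-1.63) fell as well, and Myc, which drives growth and ribosome genes, went from 182 ± 8.9 to 77.6 ± 1.55 CPM (-1.23). The AP-1 subunits Jun (24.7, 18.1 and 18.8 CPM in DMSO and 50.8, 48.6 and 50.7 CPM in encorafenib, 1.29) and Jund (from 37.3 ± 10.3 to 87.7 ± 7.34 CPM, 1.26) rose, so members of 1 dimer family moved in opposite directions. Fos itself was not called (from 1.38 ± 0.0676 to 1.03 ± 0.122 CPM, adjusted p = 0.042). The kinases of the cascade changed less: of 22 core genes, 7 were higher, 2 lower and 13 not called (median 0.10). The adaptor Gab1 rose from 5.33 ± 0.448 to 24.5 ± 1.67 CPM (2.2) and Shc1 by 0.61, while the RAS GTPase-activating protein gene Rasa1 (-0.58) and the scaffold gene Ksr1 (-0.38) fell. The call of Ksr1 was lost without DMSO replicate 1 (-0.28, adjusted p = 0.0207, limma-voom), which left 1 core gene lower.

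Receptors and ligands of growth factor signalling are given in turn, beside background shares of 35.3% of genes called higher and 28.7% lower. Of 31 receptor tyrosine kinases, 19 were higher, 5 lower and 7 not called, with a median of 0.40. Fgfr3 rose from 2.34 ± 0.451 to 9.37 ± 0.94 CPM (2.02), the ephrin receptor Ephb3 from 47.7 ± 2.6 to 123 ± 1.37 CPM (1.37) and the WNT5A receptor Ror1 from 8.27 ± 0.994 to 20.1 ± 0.368 CPM (1.28). Egfr was at 38.6, 37.9 and 36.8 CPM in DMSO and 58.5, 56.1 and 55.9 CPM in encorafenib (log2 fold change 0.59, SE 0.063, adjusted p = 2.07e-09), without overlap of the groups. Its relatives Erbb3 (0.56) and Erbb2 (0.28) and the TAM receptor Axl (0.40) rose too. Epha4 (from 59.2 ± 0.921 to 24.6 ± 1.39 CPM, -1.27) and Mertk (-1.13) fell, and Met was not called (-0.14, adjusted p = 0.141). Of 27 growth factor ligands, 8 were higher, 11 lower and 8 not called (median -0.35). Besides Areg, the EGFR ligands Btc (from 32.6 ± 0.87 to 5.35 ± 0.526 CPM, -2.61), Ereg (-1.58) and Hbegf (-0.83) fell, and so did Fgf2 (from 9.4 ± 0.967 to 2.1 ± 0.417 CPM, -2.14). Pdgfa (from 39.2 ± 0.565 to 163 ± 6.43 CPM, 2.05) and Igf2 (1.58) rose, so that EGFR-family receptors rose while 4 of their ligands fell.

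AP-1 dimers bind the letters TGANTCA, and the promoters of 2 strongly lowered genes are shown because they hold this motif close to the transcription start. Emp1 (chr6:135362781-135362930, plus strand) is an epithelial membrane protein and Upp1 (chr11:9117948-9118007, plus strand) the phosphorylase described above. The sequences are RefSeq promoters (build GRCm38.p6), written 5′ to 3′ on the gene's strand and ending at the base before the start, with the motif in capitals.
Emp1: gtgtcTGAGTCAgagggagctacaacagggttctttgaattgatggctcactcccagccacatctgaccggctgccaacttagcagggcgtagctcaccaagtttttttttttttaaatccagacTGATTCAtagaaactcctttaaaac
Upp1: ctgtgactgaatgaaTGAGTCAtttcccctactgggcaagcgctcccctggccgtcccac
The motifs begin 145 and 25 bases before the start in Emp1 and 45 bases before it in Upp1. Over 300-base promoters (250 before to 50 after the start, either strand), TGANTCA stood in 5.58% of the genes called higher, 5.01% of those called lower and 5.26% of all 10225 genes with a promoter in the table used. Among genes changed by at least 1 log2 unit the shares were 7.51% of 1291 higher and 8.70% of 759 lower genes, so the order of the groups turned with the size of change. Hits of each motif were counted on their own, also where motifs overlap. A match is a description of letters and not of binding.

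Genes of the cell division cycle fell together. Of 36 DNA replication genes, 35 were lower and 1 not called (median -0.97), and all 32 mitosis genes were lower (median -1.0, range -1.27 to -0.62). The background shares were 28.7% of genes called lower and 35.3% called higher. The replication origin factor Cdc6 was at 49.8, 46.6 and 47.7 CPM in DMSO and 17.3, 19.5 and 19.5 CPM in encorafenib (log2 fold change -1.36, SE 0.054, adjusted p = 9.25e-19), and Orc1, of the origin recognition complex, went from 13.7 ± 1.58 to 4.78 ± 0.239 CPM (-1.5). Uhrf1, which carries DNA methylation through replication, went from 221 ± 7.12 to 85.8 ± 4.03 CPM (-1.37), and Pola2, a subunit of DNA polymerase alpha, from 85.8 ± 5.36 to 35.8 ± 2.15 CPM (-1.26). Of the mitotic genes, the kinase Aurkb went from 108 ± 1.93 to 44.8 ± 1.38 CPM (-1.27), its partner survivin (Birc5) from 145 ± 2.6 to 60.4 ± 0.439 CPM (-1.26), the centromeric histone Cenpa from 149 ± 14.4 to 62.1 ± 2.21 CPM (-1.26) and cyclin B1 (Ccnb1) from 241 ± 2.92 to 103 ± 2.92 CPM (-1.23). Cdk1 was at 262, 251 and 254 CPM in DMSO and 125, 123 and 125 CPM in encorafenib (log2 fold change -1.04, SE 0.055, adjusted p = 6.68e-16). In each of the genes of this paragraph given by library, the DMSO values lay well above those in encorafenib. The regulators of G1 phase were mixed, with 8 higher, 12 lower and 5 not called of 25 (median -0.27). E2f2 (from 19.4 ± 0.747 to 4.08 ± 0.754 CPM, -2.23), E2f8 (-1.32) and the E cyclins Ccne1 (-0.99) and Ccne2 (-0.98) fell. The kinase inhibitor Cdkn2b (from 34.7 ± 5.47 to 109 ± 5.82 CPM, 1.66), Cdkn1a (0.55) and the pocket protein gene Rb1 (0.74) rose, and so did the D cyclins Ccnd2 (from 204 ± 22.2 to 621 ± 26.9 CPM, 1.61) and Ccnd1 (from 812 ± 86.4 to 1297 ± 25.4 CPM, 0.68).

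Promoters of 6 of these genes are shown because they hold the motifs that replication and mitosis genes are known for. E2F factors bind TTTCCCGC or TTTGGCGC, the cell cycle homology region (CHR) has the letters TTTGAA and is bound by the DREAM and MMB complexes, and NF-Y binds CCAAT. The sequences are from the same RefSeq table, end at the base before the transcription start, and have the motifs in capitals, as their reverse complement where they lie on the other strand. Cdc6 (chr11:98908001-98908150, plus strand) and Mcm6 (chr1:128359706-128359825, minus strand), a subunit of the replicative helicase, have E2F motifs. Kif11 (chr19:37376282-37376381, plus strand), a spindle motor, Ube2c (chr2:164769829-164769928, plus strand) and Cdc20 (chr4:118437344-118437443, minus strand), of the anaphase-promoting machinery, and Cdk1 (chr10:69352913-69353012, minus strand) have CHR and CCAAT motifs.
Cdc6: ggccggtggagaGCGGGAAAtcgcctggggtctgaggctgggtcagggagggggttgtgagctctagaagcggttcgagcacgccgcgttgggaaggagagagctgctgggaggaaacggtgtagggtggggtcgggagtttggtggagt
Mcm6: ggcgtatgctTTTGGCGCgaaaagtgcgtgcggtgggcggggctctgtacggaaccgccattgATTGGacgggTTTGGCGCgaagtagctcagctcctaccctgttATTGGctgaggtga
Kif11: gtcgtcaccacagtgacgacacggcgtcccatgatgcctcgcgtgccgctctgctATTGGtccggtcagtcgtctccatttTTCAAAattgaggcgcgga
Ube2c: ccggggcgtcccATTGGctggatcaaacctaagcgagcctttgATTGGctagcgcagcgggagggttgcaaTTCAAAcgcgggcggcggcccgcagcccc
Cdc20: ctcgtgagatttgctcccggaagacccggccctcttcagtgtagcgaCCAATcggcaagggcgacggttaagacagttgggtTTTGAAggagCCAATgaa
Cdk1: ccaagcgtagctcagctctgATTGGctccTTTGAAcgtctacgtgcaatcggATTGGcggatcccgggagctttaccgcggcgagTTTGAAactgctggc
The CHR of Cdc20, Kif11 and Ube2c begins 18, 19 and 29 bases before the start, and that nearest the start in Cdk1 15 bases before it. Their genes went from 147 ± 9.84 to 76.5 ± 2.72 CPM (Cdc20), from 169 ± 21.4 to 80.4 ± 3.03 CPM (Kif11) and from 198 ± 15.99 to 95.03 ± 6.71 CPM (Ube2c), and Mcm6 from 251 ± 18.2 to 173 ± 6.38 CPM. CHR and CCAAT stood together in 17 of the 26 mitosis genes with a promoter (65.4%), in 3 of 30 replication genes (10%) and in 5.06% of all promoters. An E2F motif of either form stood in 10 of 30 replication genes (33.3%), in 0 of 26 mitosis genes and in 3.01% of all. Over all genes, promoters of those called lower held each of the 2 E2F forms in 3.11% and 1.64%, against 1.10% and 0.577% for those called higher. The ETS letters CCGGAAGT were in 10.0% of lower, 6.58% of higher and 8.40% of all genes, and in 7.51% of the genes lower and 2.09% of those higher by at least 1 log2 unit. For the sterol element CACCCCAC the shares were 2.06% and 3.51%.

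**Figure D3:**
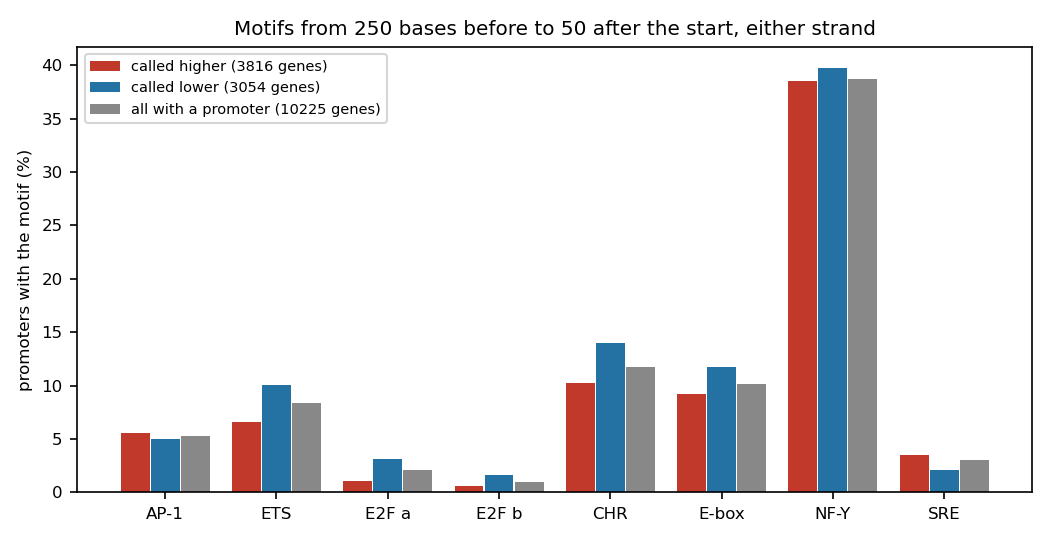
Share of promoters (vertical axis, percent) that hold each motif on either strand, for genes called higher (red, 3816), genes called lower (blue, 3054) and all genes with a RefSeq promoter (grey, 10225) in NaJa-G at day 1. E2F a is TTTCCCGC, E2F b TTTGGCGC, and the other letters are given in the text, except CACGTG for the E-box. The blue bar is above the red for the ETS, E2F, CHR and E-box letters, and below it for the sterol element (SRE). For AP-1 it is below the red (5.01% and 5.58%), an order that turned among genes changed by at least 1 log2 unit.

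Genes of ribosome production fell together as well, beside 28.7% lower and 35.3% higher over all genes. All 32 ribosome biogenesis genes were lower, with a median of -1.18. Polr1b, a subunit of RNA polymerase I, went from 110.2 ± 3.48 to 32.7 ± 1.08 CPM (-1.75), dyskerin (Dkc1) from 238 ± 4.04 to 79.3 ± 4.77 CPM (-1.59), Nolc1 from 356 ± 12.2 to 119.7 ± 2.94 CPM (-1.57) and Nop56 from 384 ± 39.5 to 129.6 ± 4.04 CPM (-1.56). Of 80 cytosolic ribosomal protein genes, 73 were lower and 7 not called (median -0.57), and 67 were lower without DMSO replicate 1, the library in which this group was highest. Their summed level was 54747 CPM in DMSO replicate 1, 43794 and 44538 CPM in the other DMSO libraries and 31805 to 33200 CPM in encorafenib. Ribosomal protein genes have many processed copies, and how reads were shared among them is not given in the sources used here. Rps18 (from 859.8 ± 92.8 to 481 ± 1.18 CPM, -0.83) and Rpl36 (-0.80) fell most of those above 0 mean log2 CPM. Genes of the amino acid response driven by ATF4 were mixed, 13 lower, 7 higher and 4 not called of 24 (median -0.49). Enzymes of serine and one-carbon synthesis and amino acid carriers fell, with Phgdh from 1400.5 ± 211 to 399 ± 0.693 CPM (-1.8), Shmt2 from 235 ± 21.7 to 78.4 ± 0.675 CPM (-1.58), Slc1a5 from 169.8 ± 13.7 to 52.5 ± 2.28 CPM (-1.69) and the cystine carrier Slc7a11 from 492 ± 20.6 to 187 ± 6.35 CPM (-1.39). Vldlr (1.31) and Nupr1 (1.13) rose.

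Lists of metabolism and the lysosome are given beside background shares of 35.3% higher and 28.7% lower. Glycolysis and hypoxia genes gave 13 lower, 5 higher and 11 not called of 29 (median -0.25, and -0.11 without DMSO replicate 1). Besides Stc1, Egln3, an oxygen-sensing hydroxylase, went from 9.97 ± 1.24 to 1.84 ± 0.111 CPM (-2.44) and Stc2 from 64.5 ± 1.79 to 18.9 ± 0.866 CPM (-1.77), while Ndrg1 rose from 13.8 ± 0.254 to 62.4 ± 1.64 CPM (2.17). Most nuclear genes of the respiratory chain did not pass the test: of 77, 20 were higher, 5 lower and 52 not called (median 0.079), and 2 were lower without DMSO replicate 1. Ndufv3 (0.82) was the most changed of those above 0 mean log2 CPM. The 25 cholesterol genes gave 12 higher, 4 lower and 9 not called (median 0.24), with 2 lower without DMSO replicate 1. Hsd17b7 (from 65.1 ± 3.42 to 139.96 ± 4.56 CPM, 1.1) and Tm7sf2 (1.07), late enzymes of the pathway, rose. Fatty acid and glycerolipid genes gave 8 higher, 10 lower and 6 not called of 24 (median -0.036). Lysosome and autophagy genes leaned upward, with 25 higher, 3 lower and 12 not called of 40 (median 0.40). The protease Ctsf (from 1.17 ± 0.0814 to 4.37 ± 0.0563 CPM, 1.9), Map1lc3a, which coats autophagosomes (from 22.4 ± 2.81 to 75.3 ± 4.21 CPM, 1.75), and Lamp2 (1.13) rose, while cathepsin L (Ctsl, from 1472 ± 51.5 to 751 ± 13.9 CPM, -0.97) fell.

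Of 26 genes of the PI3K and FOXO pathway, which runs beside ERK downstream of the same receptors, 17 were higher, 2 lower and 7 not called (median 0.55). Over all genes 35.3% were higher and 28.7% lower. The inhibitor Pik3ip1 rose from 2.27 ± 0.168 to 10.3 ± 0.684 CPM (2.19), the regulatory subunit Pik3r3 from 15.4 ± 0.516 to 40.5 ± 0.733 CPM (1.39), the catalytic subunit Pik3cd from 0.70 ± 0.0972 to 2.92 ± 0.154 CPM (2.05) and the factor Foxo6 from 1.17 ± 0.199 to 6.57 ± 0.712 CPM (2.5). Activators and inhibitors of the pathway thus stood among the genes that rose, and Inpp4b (-0.85) and Pik3ca (-0.22) fell.

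Genes of cell death are given as 3 lists, beside background shares of 35.3% higher and 28.7% lower. Of 16 BCL2-family genes, 10 were higher, 2 lower and 4 not called (median 0.49). The BH3-only proteins, which start apoptosis, led the list: Bmf was at 4.33, 4.14 and 3.79 CPM in DMSO and 26.1, 29.6 and 26.5 CPM in encorafenib (log2 fold change 2.74, SE 0.15, adjusted p = 8.55e-16), and Bcl2l11, encoding BIM, whose protein ERK marks for breakdown, was at 39.5, 40.4 and 36.4 CPM in DMSO and 109.7, 116 and 106 CPM in encorafenib (log2 fold change 1.51, SE 0.073, adjusted p = 7.44e-17). No DMSO library reached the encorafenib values of either gene. Bid (from 26.2 ± 0.113 to 63.9 ± 0.22 CPM, 1.29) and Pmaip1, encoding NOXA (from 20.1 ± 1.36 to 45.8 ± 1.07 CPM, 1.19), rose as well. So did the protective Mcl1 (0.46) and Bcl2l1 (0.25). Bcl2l14 (-1.77) and Bax (-0.26) fell, the latter not called with the GC trend removed (-0.25, adjusted p = 0.0116, limma-voom). Among caspases, gasdermins and their substrates, 10 were higher, 6 lower and 4 not called of 20 (median 0.18). The pore-forming Gsdme fell from 9.66 ± 0.442 to 4.18 ± 0.209 CPM (-1.22), whereas Casp12 (from 0.544 ± 0.193 to 5.07 ± 0.779 CPM, 3.27) and the alarmin Il33 (from 2.1 ± 0.0581 to 12.98 ± 1.07 CPM, 2.61) rose. The cytokine Il18 was at 0.0131, 0.067 and 0.0665 CPM in DMSO and 8.83, 9.6 and 9.73 CPM in encorafenib, a rise from only a few reads in DMSO, for which no ratio is given. The 22 p53 target genes gave 13 higher, 4 lower and 5 not called (median 0.29). The cells carry the R172H change, and the study reports that they had lost the normal Trp53 allele. Trp53inp1 rose from 5.61 ± 0.787 to 33.6 ± 1.24 CPM (2.59), the antiproliferative Btg2 from 4.91 ± 0.568 to 23.2 ± 2.02 CPM (2.26) and Dusp14 from 35.8 ± 2.87 to 82.03 ± 2.46 CPM (1.19). Plk3 fell from 19.1 ± 1.12 to 5.84 ± 0.357 CPM (-1.7), Mdm2 was not called (from 81.1 ± 2.91 to 81.9 ± 2.14 CPM, adjusted p = 0.816), and Trp53 fell from 219 ± 9.49 to 136 ± 5.24 CPM (-0.68). Of the other engineered loci, Braf was not called (from 40.9 ± 2.62 to 46.6 ± 3.57 CPM, 0.19, adjusted p = 0.0885), but was called higher with the GC trend removed (0.24, adjusted p = 0.00946, limma-voom), and Apc was higher by 0.34. The drug acts on the BRAF protein, and no deletion is checked by these values.

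Epithelial junction genes and mesenchymal cytoskeleton genes rose in the same libraries, where 35.3% of all genes were higher and 28.7% lower. Of 42 epithelial genes, 33 were higher, 3 lower and 6 not called (median 0.63), and of 22 mesenchymal genes, 16 were higher, 1 lower and 5 not called (median 1.04). Cdh1, encoding E-cadherin, was at 557, 502 and 494 CPM in DMSO and 841, 787 and 848 CPM in encorafenib (log2 fold change 0.68, SE 0.070, adjusted p = 9.95e-10). Plakoglobin (Jup) went from 98.99 ± 9.88 to 294 ± 5.77 CPM (1.57), cingulin (Cgn) from 47.2 ± 3.86 to 129 ± 6.13 CPM (1.46) and Krt19 from 716 ± 112 to 1922 ± 42.6 CPM (1.44). Krt20 (from 6.68 ± 0.587 to 1.09 ± 0.116 CPM, -2.61), a keratin of mature gut epithelium, and Cldn2 (from 21.2 ± 0.551 to 5.82 ± 0.404 CPM, -1.88) fell. On the mesenchymal side the contractile genes led, with caldesmon (Cald1) from 76.5 ± 1.64 to 446 ± 5.86 CPM (2.55), the myosin light chain Myl9 from 2.26 ± 0.522 to 9.17 ± 0.192 CPM (2.02) and smooth muscle Actg2 from 1.78 ± 0.445 to 5.77 ± 0.358 CPM (1.72). The transcription factors Zeb1 (from 31.00 ± 0.876 to 59.1 ± 0.353 CPM, 0.93) and Snai2 (1.24) rose, Snai1 (from 4.87 ± 0.81 to 2.76 ± 0.109 CPM, -0.82) fell, and Vim was not called (from 2503 ± 372 to 2376 ± 79.9 CPM, adjusted p = 0.635). Intestinal differentiation genes moved both ways. Of 21 tested, 10 were higher, 6 lower and 5 not called (median 0.46), and 19 of the 40 listed were not in the table. With Dhrs9, the colonocyte water channel Aqp8 (from 9.35 ± 1.31 to 0.207 ± 0.0301 CPM, -5.43) and cadherin-17 (Cdh17, 56.6, 54.6 and 55.8 CPM in DMSO and 7.88, 7.57 and 7.48 CPM in encorafenib, -2.86) fell, as did Cdx2 (-1.14). Carbonic anhydrase 2 (Car2, from 10.5 ± 0.73 to 65.8 ± 3.53 CPM, 2.64) and the guanylin gene Guca2a (from only 0.128 to 1.33 CPM, 3.31) rose.

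Genes of WNT signalling, which the loss of Apc keeps active, and of stem cells leaned upward, beside 35.3% higher and 28.7% lower over all genes. The list holds targets but also ligands and receptors. Of 25, 15 were higher, 3 lower and 7 not called (median 0.95). Notum, a secreted WNT inhibitor and target, went from 13.3 ± 1.98 to 82.2 ± 3.46 CPM (2.64), the ligand Wnt10a from 1.03 ± 0.176 to 3.93 ± 0.252 CPM (1.91) and Apcdd1 from 31.5 ± 2.5 to 113 ± 6.73 CPM (1.85). Axin2 was at 217, 223 and 219 CPM in DMSO and 428, 452 and 403 CPM in encorafenib (log2 fold change 0.96, SE 0.063, adjusted p = 7.95e-14), and the stem cell receptor Lgr5 at 6.5, 7.66 and 7.02 CPM in DMSO and 14.9, 15.4 and 15.03 CPM in encorafenib (log2 fold change 1.1, SE 0.067, adjusted p = 1.52e-14). The groups did not overlap in either gene. Smoc2, another gene of intestinal stem cells, went the other way and fell from 296 ± 4.79 to 44.5 ± 0.968 CPM (-2.73), and Cd44 fell as well (-0.40). Of 29 YAP target and fetal gut genes, 19 were higher, 4 lower and 6 not called (median 0.76). Ccdc80 (from 15.7 ± 1.46 to 248 ± 6.66 CPM, 3.98) and Crim1 (from 167 ± 11.4 to 516 ± 16.4 CPM, 1.63) rose most, and Igfbp3 (from 549.9 ± 4.73 to 84.05 ± 1.39 CPM, -2.71) and Fjx1 (from 2.31 ± 0.232 to 0.747 ± 0.115 CPM, -1.6) fell. In the TGF-beta and BMP list 16 of 35 were higher, 7 lower and 12 not called (median 0.15). The ligands Tgfb2 (7.77, 7.35 and 6.17 CPM in DMSO and 118, 108 and 118 CPM in encorafenib, 4.01) and Tgfb3 (from 15.2 ± 0.522 to 53.2 ± 2.54 CPM, 1.8) and the receptor Tgfbr2 (1.75) rose, while the BMP inhibitor Grem1 (from 2.29 ± 0.177 to 0.573 ± 0.0655 CPM, -1.96) fell. Notch genes gave 7 higher, 5 lower and 5 not called of 17 (median 0.030): receptor Notch1 (from 1.81 ± 0.231 to 3.96 ± 0.335 CPM, 1.15) rose, and the target Nrarp (from 3.3 ± 1.05 to 0.665 ± 0.267 CPM, -2.38), the ligand Dll4 (-1.66) and the DNA-binding partner Rbpj (-1.12) fell.

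The extracellular matrix was among the groups that rose most, beside 35.3% higher and 28.7% lower over all genes. Of 38 collagens and matrix proteins, 29 were higher, 2 lower and 7 not called (median 0.83). Their summed level was 8278 to 9280 CPM in DMSO and 15301 to 15875 CPM in encorafenib. Besides Spon2 and Thbs1, Col11a1 went from 0.377 ± 0.0778 to 8.38 ± 0.605 CPM (4.47), the elastic fibre protein Fbln5 from 1.17 ± 0.115 to 11.6 ± 0.826 CPM (3.3) and the basement membrane collagen Col4a5 from 14.4 ± 0.811 to 124 ± 6.75 CPM (3.1). Tenascin C (Tnc, from 317 ± 9.37 to 175 ± 4.98 CPM, -0.86) fell, as did Col7a1 (-0.64, adjusted p = 0.00935, limma-voom), whose call was lost under several settings. Proteases and their inhibitors gave 19 higher, 8 lower and 4 not called of 31, with the highest median of any list at 1.41. Adamts15 went from 0.712 ± 0.114 to 19.4 ± 0.867 CPM (4.75) and Mmp14 from 92.9 ± 4.74 to 272 ± 2.83 CPM (1.55), against a fall of Mmp10 (from 5.5 ± 0.563 to 1.23 ± 0.314 CPM, -2.19). Laminins and integrins gave 13 higher, 4 lower and 5 not called of 22 (median 0.40). Integrin subunit genes Itgb8 (from 1.14 ± 0.0729 to 4.82 ± 0.14 CPM, 2.08) and Itgb6 (1.86) rose, and Itga2 (-1.83) and the laminin gene Lamb1 (from 300.01 ± 15.9 to 48.01 ± 1.14 CPM, -2.64) fell.

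Genes of antigen presentation and of the interferon response leaned upward, beside background shares of 35.3% higher and 28.7% lower. Of 23 MHC class I and loading genes, 17 were higher, 1 lower and 5 not called (median 0.97). Tapasin (Tapbp), which loads peptide, went from 56.9 ± 6.14 to 294 ± 11.5 CPM (2.37), the nonclassical H2-T23 from 9.08 ± 0.955 to 50.9 ± 1.17 CPM (2.49) and the proteasome activator Psme2 from 17.03 ± 1.03 to 51.1 ± 2.68 CPM (1.58). Changes of the classical chains were smaller: H2-K1 was at 41.5, 41.8 and 41.95 CPM in DMSO and 53.8, 54.4 and 57.9 CPM in encorafenib (log2 fold change 0.41, SE 0.076, adjusted p = 2.68e-05) and B2m at 102, 97.3 and 93.1 CPM in DMSO and 145, 133 and 147 CPM in encorafenib (log2 fold change 0.54, SE 0.070, adjusted p = 8.04e-08), while H2-D1 was not called (0.24, adjusted p = 0.0131). H2 genes are alike in sequence, so their separate values are uncertain. Tap1, Psmb8, Psmb9 and Nlrc5 were not in the table, and of the 10 class II genes 1 was, H2-DMa, at 1.4 ± 0.0789 CPM in DMSO. Interferon genes gave 28 higher, 6 lower and 7 not called of 41 (median 0.77). Rtp4 (from 0.397 ± 0.0124 to 2.41 ± 0.0789 CPM, 2.58), Parp14 (from 0.505 ± 0.118 to 2.66 ± 0.331 CPM, 2.4), Samd9l (from 1.34 ± 0.183 to 6.57 ± 0.428 CPM, 2.32) and the RNA sensor Ddx58 (from 6.72 ± 0.405 to 31.7 ± 0.871 CPM, 2.25) rose, as did Irf1 (0.87). Socs1, an inhibitor of the receptors (from 2.85 ± 0.53 to 0.683 ± 0.16 CPM, -2.11), and the sensor Dhx58 (-1.38) fell. Checkpoint genes moved both ways, 10 higher, 4 lower and 6 not called of 20 (median 0.15). Cd274, encoding PD-L1, was at 6.06, 6.09 and 7.45 CPM in DMSO and 2.8, 3.19 and 3.56 CPM in encorafenib (log2 fold change -1.03, SE 0.12, adjusted p = 5.48e-09), and Pdcd1lg2, encoding PD-L2, went from 19.9 ± 0.492 to 3.52 ± 0.308 CPM (-2.49). By contrast Vtcn1, encoding B7-H4 (from 2.28 ± 0.18 to 31.8 ± 0.0972 CPM, 3.8), Vsir, encoding VISTA (from 0.662 ± 0.0277 to 4.32 ± 0.151 CPM, 2.69), and the complement inhibitor Cd55 (from 0.547 ± 0.103 to 4.84 ± 0.602 CPM, 3.17) rose.

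Secreted inflammatory factors gave 10 higher, 5 lower and 12 not called of 27 (median 0.32), beside 35.3% higher and 28.7% lower over all genes. Osteopontin (Spp1) fell from 447 ± 12.4 to 60.3 ± 4.48 CPM (-2.9), Mif from 197 ± 39.2 to 74.2 ± 2.81 CPM (-1.39), Il34 from 11.8 ± 0.509 to 4.99 ± 0.635 CPM (-1.23) and the growth factor gene Csf2 to 0.153 ± 0.0439 CPM (-3.63), and Cxcl3 rose from 16.2 ± 0.223 to 34.5 ± 1.18 CPM (1.09). Others of the 10 rose more, from few reads. They include Cxcl15 (from 0.233 to 1.72 CPM, 3.07), Ccl9 (from 0.22 to 1.75 CPM, 2.94) and Il15 (from 0.202 to 1.43 CPM, 2.83). Like the ATF4 targets, the other stress lists were mixed. The unfolded protein response gave 5 higher, 5 lower and 7 not called of 17 (median 0.012), with Xbp1 higher (0.93) and Creld2 lower (-0.90). NRF2 targets gave 12 higher, 9 lower and 7 not called of 28 (median -0.021), with the glutathione transferases Gsta4 (from 14.6 ± 1.28 to 95.2 ± 4.55 CPM, 2.7), Gstm1 (from 53.6 ± 3.43 to 149.6 ± 7.65 CPM, 1.48) and the quinone reductase Nqo1 (from 23.2 ± 0.433 to 58.5 ± 2.16 CPM, 1.33) higher.

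**Figure D4:**
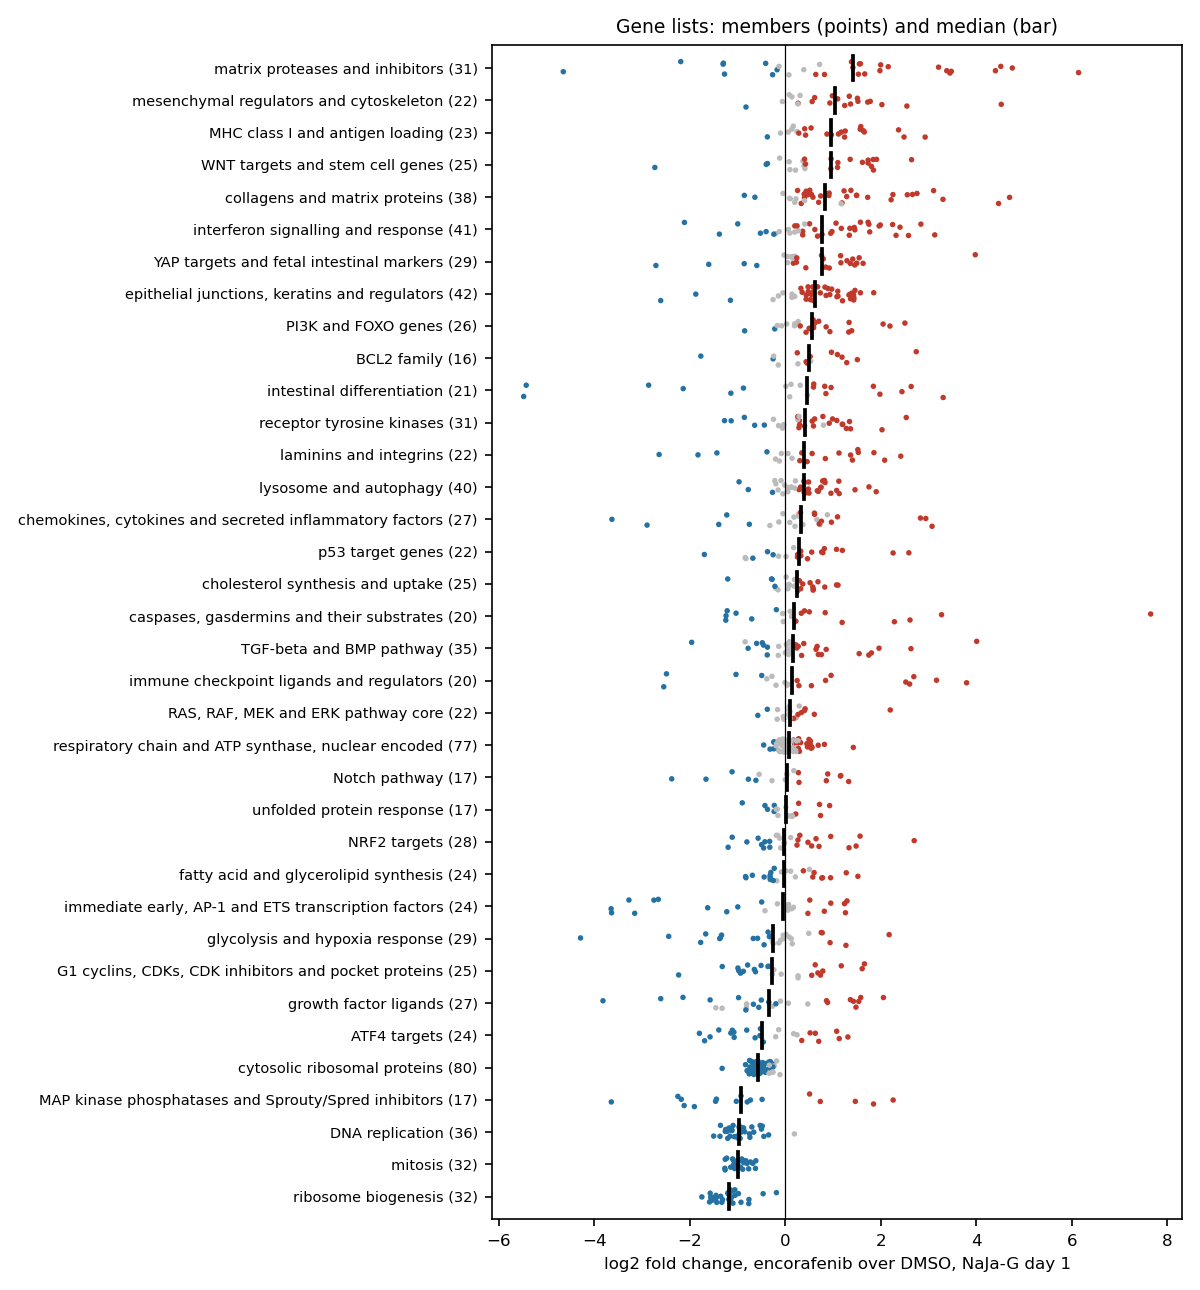
Log2 fold change of encorafenib over DMSO (horizontal axis) in NaJa-G at day 1 for the tested members of each gene list, with the number of members after its name. Points are genes (red called higher, blue called lower, grey not called) and the black bar is the median of the list. Members of the ribosome biogenesis, mitosis and DNA replication lists lie left of 0 with 1 grey exception, while lists with medians near 0 hold members far to both sides.

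Markers of other cells of a peritoneal lavage were looked for because the line was grown from one. Background shares were again 35.3% higher and 28.7% lower. Of 14 macrophage markers 4 were in the table, with a summed level of 24.2 to 27.3 CPM in DMSO and 25.04 to 26.99 CPM in encorafenib, and 2 of them were called higher (median 0.78), Csf1r from 0.161 ± 0.0559 to 1.31 ± 0.0918 CPM (3.01) and Fcgr3 (1.25). Defining genes such as Ptprc, Adgre1 and Tyrobp were not in the table. None of 13 lymphocyte markers was in the table. Of 10 fibroblast markers 6 were in the table and 5 were higher, with sums of 57.6 to 77.96 CPM in DMSO and 95.6 to 112 CPM in encorafenib. Pdgfra (from 2.94 ± 0.0698 to 5.05 ± 0.22 CPM, 0.79), Col1a1 (from 42.1 ± 7.97 to 69.95 ± 5.13 CPM, 0.74) and decorin (Dcn, from 0.163 ± 0.058 to 1.13 ± 0.119 CPM, 2.76) were among them, and Lum, Thy1, Pdpn and Fap were not in the table. Of 10 mesothelial markers 6 were in the table and 3 higher, Krt19, Msln (from 664 ± 92.9 to 1409 ± 100.2 CPM, 1.09) and Upk3b (from only 0.0736 to 1.55 CPM, 4.37). The 6 markers had sums of 1361 to 1403 CPM in DMSO and 3212 to 3491 CPM in encorafenib. Wt1 and Upk1b were not in the table. Sums for 3 endothelial markers stayed at 3.36 CPM or below. The study states that the cultures were passaged until a PCR no longer found the intact Apc allele of the recipients. The normal Trp53 allele was not found at higher passages either. The part of such cells in the matrix and mesenchymal changes was not tested.

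The same day of treatment in NaJa-D and NaJa-F shows how far the response was shared between sister lines. Each response was measured against the line's own DMSO libraries. In NaJa-D 23.7% of genes were called higher and 21.2% lower, and NaJa-F had 17.5% and 12%. Of the genes higher in NaJa-G, 2566 were also higher in NaJa-D, 51.5% of the NaJa-G list and 76.7% of the NaJa-D list, and 127 were lower there. With NaJa-F, 2367 were shared, 47.5% of the NaJa-G list and 95.9% of the NaJa-F list, and 22 went the other way. The lower genes gave shares of 55.1% and 74.6% with NaJa-D and of 38.4% and 91.8% with NaJa-F. Where a gene was higher in all 3 lines, its change was larger in NaJa-G, with a median of 1.17 log2 units against 0.640 in NaJa-D and 0.536 in NaJa-F. For genes lower in all 3 the medians were 0.983, 0.533 and 0.359. In NaJa-G 2963 genes were called that passed in neither other line, but a missed threshold is no difference. Of these, 784 differed from both lines when the difference itself was tested, 477 upward and 307 downward. As background, 3269 of all 14107 genes differed from both lines with the same sign.

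The test of the difference between responses called 20.2% of genes more positive and 16.2% more negative in NaJa-G than in NaJa-D, and 19.2% and 14.3% against NaJa-F. Both tests use the same 6 NaJa-G libraries. Differing from both lines with the same sign were 3269 genes. Log2 fold changes are given here in the order NaJa-G, NaJa-D and NaJa-F. Serpinb1a led those more positive, with 6.14, 1.19 and 2.74. Acta1 (4.52, 1.94 and 2.05), the intracellular serpin Serpinb11 (3.76, 1.08 and 0.81), the iron exporter Slc40a1 (3.65, 1.02 and 0.97) and S100a7a (3.13, 0.56 and 0.65) followed. Among those more negative, Areg had values of -3.82, -0.52 and -1.39, Upp1 of -3.81, -1.56 and -1.59 and Etv4 of -3.64, -1.2 and -1.0. For Etv4 the fall was larger in NaJa-G than in either other line. Sh2d5 (-3.12, -0.36 and -0.87) and the anion transporter Slco4a1 (-3.3, -0.48 and -1.2) differed as well.

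By list, the medians in NaJa-G, NaJa-D and NaJa-F were -1.18, -0.49 and -0.31 for ribosome biogenesis, -1.0, -0.60 and -0.20 for mitosis and -0.97, -0.36 and -0.25 for DNA replication. The response was more negative in NaJa-G than in NaJa-F for 32 of 32 mitosis genes, 35 of 36 replication genes and 31 of 32 ribosome biogenesis genes, and than in NaJa-D for 19, 29 and 30 of them (background 14.3% and 16.2%). Ribosomal protein genes differed: their medians were -0.57, -0.55 and -0.19, and none of the 80 was called more negative than in NaJa-D, with 36 more negative than in NaJa-F. WNT and stem cell genes had medians of 0.95, 0.22 and 0.21. Of these, 12 of 25 were more positive in NaJa-G than in NaJa-D and 9 than in NaJa-F (background 20.2% and 19.2%). PI3K and FOXO genes had 0.55, 0.11 and 0.032, with 14 and 15 of 26 more positive. For receptor tyrosine kinases the medians were 0.40, -0.021 and 0.10, with 14 and 12 of 31 more positive. Collagens and matrix proteins had 0.83, 0.40 and 0.77, with 18 and 15 of 38 more positive. Opposite to both sister lines were 16 genes higher and 4 lower in NaJa-G (values again in the order NaJa-G, NaJa-D and NaJa-F). Of the higher ones Apcdd1, a WNT target, had 1.85, -0.97 and -0.43, the chemokine scavenger receptor Ackr3 0.50, -0.80 and -0.60 and the R-spondin receptor Lgr6 0.58, -0.58 and -0.47. Pcdh7 had 0.40, -1.09 and -0.54 and Plekhh2 0.37, -0.41 and -0.66. All 4 lower ones were small in NaJa-G, Fam213a (-0.32), Btbd3 (-0.30), Gm26809 (-0.26) and Cpne2 (-0.31). Without encorafenib replicate 1, Gm26809 was not called in NaJa-G (-0.22, adjusted p = 0.0113, limma-voom).

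**Figure D5:**
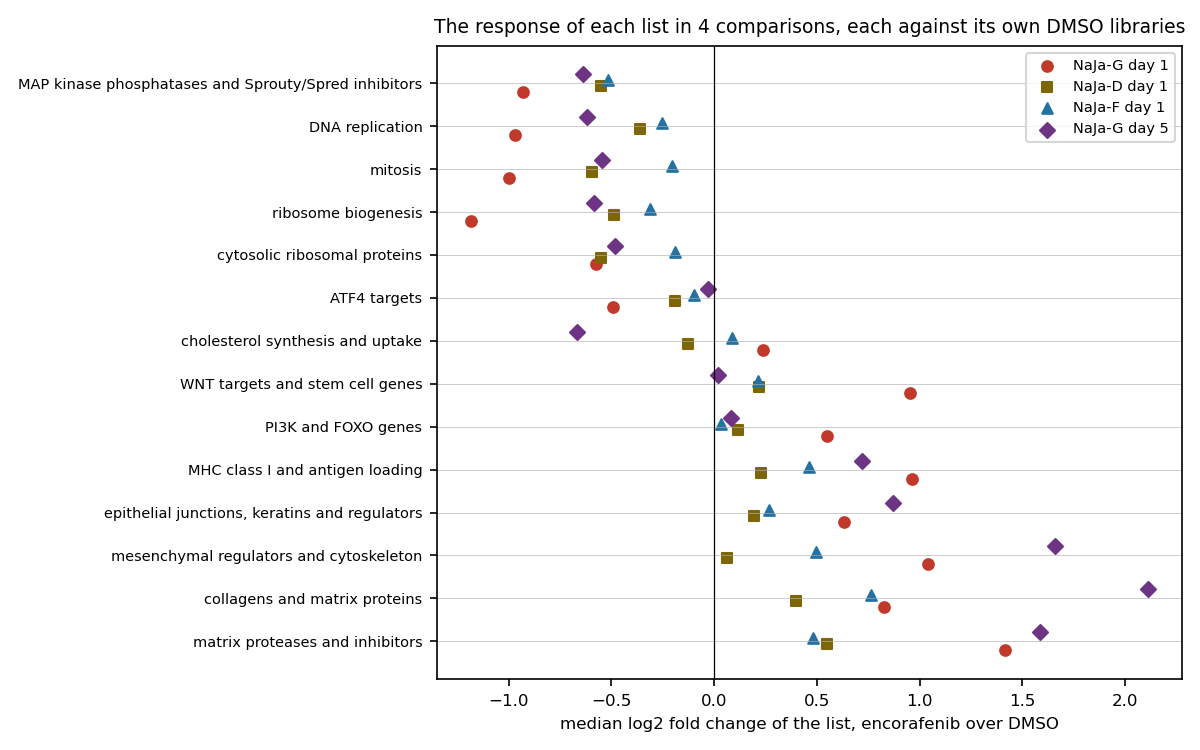
Median log2 fold change of encorafenib over DMSO (horizontal axis) of 14 gene lists in NaJa-G at day 1 (red circles), NaJa-D at day 1 (brown squares), NaJa-F at day 1 (blue triangles) and NaJa-G at day 5 (purple diamonds), each against its own DMSO libraries. Day 1 of NaJa-G lies farthest from 0 for ribosome biogenesis (-1.18), mitosis (-1.0) and DNA replication (-0.97), while day 5 lies farther right for collagens (2.11) and mesenchymal genes (1.66).

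At day 5 in NaJa-G, against DMSO libraries of that day, 28.5% of genes were called higher and 24.7% lower. Of the genes higher at day 1, 3136 (63.0%) were also higher at day 5 and 262 were lower. Of those lower at day 1, 2405 (59.4%) were lower and 96 higher. The test of the change between days called 15.5% of genes more positive and 16.2% more negative at day 5. Of genes higher at day 1 it called 1790 more negative and 382 more positive, and of genes lower at day 1 it called 1410 more positive and 109 more negative. These genes were chosen by day 1 values that the test also uses. Day 5 has 2 DMSO libraries. List medians moved from -1.18 to -0.59 for ribosome biogenesis (29 of 32 genes more positive at day 5), from -1.0 to -0.54 for mitosis (24 of 32) and from -0.97 to -0.62 for DNA replication (20 of 36). WNT and stem cell genes moved from 0.95 to 0.019, with 15 of 25 more negative. PI3K and FOXO genes moved from 0.55 to 0.084, with 12 of 26 more negative. Other lists moved further out. Collagens and matrix proteins went from 0.83 to 2.11, with 22 of 38 more positive, and mesenchymal genes from 1.04 to 1.66, with 12 of 22. Cholesterol genes turned, from 0.24 to -0.67, with 24 of 25 more negative. Medians of the MHC class I list were 0.97 and 0.72. Single genes with the largest gains by day 5 were Acta2 (1.34 at day 1 and 5.29 at day 5), Myl9 (2.02 and 4.91), the collagen crosslinking enzyme Loxl2 (0.92 and 3.88), Dgkk (1.25 and 4.2) and Lce1h (0.081, not called, and 3.46). Large losses were in 4930438A08Rik (4.15 and -1.4), Slurp1 (3.54 and -1.57), the chemokine receptor gene Cxcr6 (1.7 and -2.82) and Tesc (3.11 and -1.33). Each of these was higher than in DMSO at day 1 and had a negative log2 fold change at day 5.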

How the data were processed

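RNA of 34 libraries was sequenced, and 1 table of gene counts was deposited, which holds whole, unnormalized read counts for 14107 genes. Per the labels and the study's methods the reads were trimmed with Trimmomatic 0.39 and aligned with STAR 2.5.2b (versions from the submitters' processing notes) to GRCm38/mm10. The program that counted reads, its annotation and its strand setting are not given in the sources used here, so genes that overlap or have near-identical copies cannot be separated further. The table had been reduced to expressed genes: every gene had a summed count of at least 360, so the study's row sum filter removed none. Counts were scaled by TMM (edgeR 4.0.16) and fitted with limma-voom (limma 3.58.1, R 4.3.3) on 12 group means over all 34 libraries, with 2-sided tests and Benjamini-Hochberg adjustment over all genes. The study's methods name limma, TMM and an adjusted p below 0.01, and the voom weights and the design were chosen here. CPM are TMM-scaled, not per gene length, so levels of different genes are not compared. Symbols came from GENCODE M21 for 14064 genes, whose coordinates are 1-based on GRCm38, and promoters from RefSeq for 10225. Named were the 10 highest and 10 lowest log2 fold changes among called genes of at least 2 mean log2 CPM without overlap of the groups, the 5 largest gains and losses in mean CPM, up to 4 most changed called members of each list of at least 0 mean log2 CPM and up to 2 moving against its median, the 5 most different genes each way from both sister lines (at least 2 mean log2 CPM), up to 5 each way called opposite to both, the 5 each way that changed most between days (same limit), and Braf, Trp53 and Apc. Genes named after their values were seen were Axin2, Axl, B2m, Bcl2l1, Ccnd1, Ccne1, Ccne2, Cd274, Cdc20, Cdh1, Cdk1, Cdkn1a, Cdx2, Csf1r, Dcn, Dusp10, Dusp16, Dusp6, Egfr, Egr1, Epcam, Erbb2, Erbb3, Ereg, Fcgr3, Fn1, Fos, Guca2a, H2-D1, H2-DMa, H2-K1, Hbegf, Hnf4a, Il18, Irf1, Kif11, Krt8, Lgr5, Mcl1, Mcm6, Mdm2, Met, Mmp14, Myc, Neat1, Rb1, Rsrp1, Serpinb9, Snai2, Spry1, Tgfbr2, Ube2c, Upk3b, Vil1, Vim and Zeb1. Some genes that the rule names are not reported here. The comparison, gene lists and rule were chosen with earlier results of these data known. Motif letters and the promoters shown were also chosen then. Scripts were tested on simulated counts. Alternatives were DESeq2 1.42.0, edgeR, other scalings, filters, weights, thresholds, a GC correction, the replicate number as a block and leaving out each library.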

Additional observations from a re-analysis of the deposited data

Results flagged for a closer look

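Results are listed here where the response to encorafenib in NaJa-G at day 1 differed from the response in another line or on another day by a test of the difference itself (limma-voom, adjusted p below 0.01). Against NaJa-D 5134 genes differed, against NaJa-F 4724, and between day 5 and day 1 of NaJa-G 4473. The first 2 counts share the NaJa-G libraries.

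On the log2 scale the responses of genes more positive than in both sister lines exceeded those in NaJa-D and NaJa-F, in that order, by these amounts: Serpinb1a 4.96 and 3.41, Acta1 2.58 and 2.47, Serpinb11 2.68 and 2.94, Slc40a1 2.63 and 2.68 and S100a7a 2.57 and 2.48. For genes more negative in NaJa-G the differences were Areg -3.30 and -2.43, Upp1 -2.24 and -2.21, Etv4 -2.44 and -2.64, Sh2d5 -2.76 and -2.24 and Slco4a1 -2.82 and -2.10. For genes that moved against both lines they were Apcdd1 2.81 and 2.27, Ackr3 1.29 and 1.10, Lgr6 1.16 and 1.05, Pcdh7 1.48 and 0.94 and Plekhh2 0.78 and 1.04 where NaJa-G was higher, and Fam213a -1.06 and -0.70, Btbd3 -0.82 and -0.70, Gm26809 -1.09 and -0.54 and Cpne2 -0.94 and -0.53 where it was lower.

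Between day 1 and day 5 in NaJa-G the log2 response grew more positive by Myl9 2.89, Acta2 3.95, Lce1h 3.38, Loxl2 2.96 and Dgkk 2.95, and changed by 4930438A08Rik -5.55, Slurp1 -5.11, Cxcr6 -4.52 and Tesc -4.43. One DMSO library of NaJa-D at day 1 has NaJa-G in its cell line field and NaJa-D in its title. In that library 48 genes had no reads, against 53 and 50 in the other NaJa-D DMSO libraries of day 1. The NaJa-G DMSO libraries of day 1 had 13, 11 and 12 such genes. The identity of the library was not tested further. It was kept under its title, and without it 4715 genes differed from NaJa-D, 62.7% of them more positive, against 55.5% of 5134 with it.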

How the results depend on the processing

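The number of genes called for encorafenib in NaJa-G at day 1 was 9026. It was 9100 with edgeR's quasi-likelihood test, 9194 with DESeq2, 9045 with limma-trend, 8966 with DESeq2-type size factors in TMM's place, 8978 with library size alone, 8323 with only the compared groups, 10765 with sample quality weights, 10080 at an adjusted p of 0.05 and 9172 with the GC trend removed. filterByExpr removed no gene. Leaving out 1 of the 6 libraries gave 8426 to 8914. For the difference from NaJa-D (5134) the range was 4350 to 6412, for that from NaJa-F (4724) 4203 to 4663, and for day 5 against day 1 (4473) 3767 to 4593. Where 1 DMSO library was left at day 5, its spread was taken from the other groups. With a replicate block the 4 counts were 8789, 4900, 4268 and 3635. The numbers were not taken to pair the libraries (same-numbered libraries deviated from their group means with correlations of 0.162, 0.215 and -0.156, encorafenib replicate 2 correlated best with DMSO replicate 3 at 0.287, and replicate 3 with DMSO replicate 1 at 0.223).

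Counts moved by over 1.5 times with sample quality weights for the differences from NaJa-D (8281) and NaJa-F (7713), and with a minimum change of 1 log2 unit: 2883 for NaJa-G at day 1, 1345 and 953 for the differences from NaJa-D and NaJa-F, and 1380 between days. With library size alone, 40.2% of the genes differing from NaJa-D were more positive, against 55.5%, and the median difference over all genes shifted from 0.033 to -0.097. With only the compared groups fitted, 3600 genes differed from NaJa-D, 47.5% of them more positive. Of 229 named genes 11 changed their call or sign in some setting. The value of Lce1h, never called at day 1, ran from -0.0032 (without DMSO replicate 2) to 0.15 over the left-out libraries. Of 41 lists 4 with medians near 0 (fatty acid synthesis, Notch, NRF2 and the unfolded protein response) changed the sign of the median. The medians of 22 lists moved in some setting by more than 1 SD of the list's level between replicate libraries. Counts of members that moved are given with the lists.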

Other observations

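Several gene families that no list covers as a family held mostly genes called in 1 direction, beside 35.3% higher and 28.7% lower over all genes. They were picked after their values were seen, so their counts are descriptions. Other families looked at were mixed: of 24 histone genes 11 were higher and 5 lower, of 170 Tmem genes 75 and 42, and of 10 Mmp genes 5 and 2. Of 15 clade B serpin genes tested, 14 were higher and 1, Serpinb2 (-1.27), lower, with a median log2 fold change of 3.24. The 10 on chromosome 13 were all higher, in a cluster from Serpinb1a to Serpinb6a, with Serpinb6b from 8.51 ± 1.1 to 94.3 ± 3.65 CPM (3.48) and Serpinb6a at the cluster's edge at 0.20. Several of these genes have near-identical copies, so single values are uncertain. On chromosome 3, all 10 S100a genes were higher (median 1.36), with S100a7a from 25.9 ± 1.78 to 226 ± 9.27 CPM (3.13), S100a16 from 122 ± 14.8 to 402 ± 17.9 CPM (1.73) and S100a4 (1.51). Of 9 Sprr genes of the neighbouring epidermal complex 8 were higher, such as Sprr1a (from 243 ± 27.2 to 1453 ± 47.97 CPM, 2.59), and Sprr2h (-0.79) was lower.

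Of 8 glutathione transferase genes of the Gstm and Gsta classes 7 were higher (median 1.85). Of 10 Wnt ligand genes 7 were higher and 1 lower (median 1.68). Of 6 aquaporin genes 5 were lower (median -1.51), with Aqp1 from 57.2 ± 2.92 to 15.2 ± 1.23 CPM (-1.92) and Aqp3 from 37.8 ± 0.489 to 8.59 ± 0.128 CPM (-2.14). The paired receptor genes Pilra (-5.26), Pilrb1 (-4.49) and Pilrb2 (-4.3), neighbours on chromosome 5, were all lower. Of 19 small nucleolar RNA genes 18 were lower (median -1.77), at few CPM each. Some were uneven across the DMSO libraries, such as Snora57 (1.74 ± 0.945 CPM) and Snord69 (1.45 ± 0.851 CPM). Others, such as Snord43 (0.929 ± 0.0374 CPM), were not. Such RNAs lie within other genes, whose reads cannot be told from theirs.

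Under 0.5 CPM in all DMSO libraries and above 1 CPM in all encorafenib libraries were 121 called genes, among them the serotonin transporter gene Slc6a4 (from 0.209 ± 0.0686 to 5.84 ± 0.219 CPM), Calcoco2 (from 0.11 ± 0.0809 to 3.14 ± 0.273 CPM), Prelp (from 0.145 ± 0.0459 to 3.54 ± 0.168 CPM) and Il18. The reverse held for 53 genes, among them Sele (from 2.23 ± 0.163 to 0.0724 ± 0.0175 CPM), Csf2, the ETS factor gene Etv1 (from 1.46 ± 0.389 to 0.138 ± 0.0201 CPM) and Krt27 (from 2.71 ± 0.102 to 0.127 ± 0.0819 CPM). Both limits were set after the values were seen.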
